A study of Mus musculus with 12 samples.

Results

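The sarcomere is the contractile unit of muscle, and 44 of the 25093 genes counted in these satellite cells encode its proteins or the proteins that drive its contraction. They are given by a list of names: 6 myosin heavy chains, 5 myosin light chains, 7 troponins, 5 genes of the thin filament, 6 of titin, the M-band and the myosin-binding proteins, 7 of the Z-disc and cytoskeleton, 6 of calcium handling and the muscle membrane, and 2 of energy and oxygen supply. Each of the 44 was found in the count table and none was removed by a filter, so all 44 were tested. In a myofiber, myosin heavy chains pull on actin filaments once calcium released from the sarcoplasmic reticulum has been bound by troponin, and titin and the Z-disc hold the filaments in register. Many of these proteins are made as fast, slow and developmental isoforms, and the developmental forms are made in embryonic and newborn muscle and again when adult muscle regenerates. Satellite cells are the stem cells of adult muscle, lie on the myofiber and hold no sarcomeres of their own, and they build them only after differentiating and fusing.

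The libraries came from Pax7-CreERT2/+;R26R-YFP mice of 3 to 4 months after tamoxifen, with intact *Gli3* (*Gli3*+/+, the control) or homozygous for the floxed allele (*Gli3*∆/∆). *Gli3* encodes a transcription factor of the Hedgehog pathway, and it was the Pax7-CreERT2 transgene, carried by both genotypes, that restricted its deletion to *Pax7*-expressing cells. Quiescent satellite cells (QSCs) were sorted from uninjured muscle by α7-integrin and CD34, without cells positive for CD31, CD45, SCA1 or CD11b. There were 3 QSC libraries per genotype, each from 2 to 3 mice combined, and the labels do not say whether mice were shared between libraries, so p-values measure the spread between these libraries. Activated satellite cells (ASCs), taken 3 days after cardiotoxin injury, enter below only through a mean that the authors took over all 12 libraries. Gene totals do not separate the deleted part of *Gli3* from the rest, and the level of *Gli3* was not used here to check the labels.

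The QSC libraries held 39556784 to 65750131 counts. The 12 satellite cell markers summed to 5588 to 8242 CPM (counts per 1000000 counts of the library, scaled by TMM), with *Pax7*, the defining transcription factor, at 798 to 1157 CPM. Markers of other cells were lower but present. The 7 macrophage and leukocyte markers summed to 11.3 to 26.4 CPM in controls and 10.1 to 16.5 CPM in *Gli3*∆/∆ libraries. Control 3 stood apart with 1141 CPM of the 10 smooth muscle and mural markers, against 370 to 469 CPM in the other 5 libraries. Most of its sum was *Tagln* at 600 CPM and *Acta2* at 347 CPM, while *Smtn*, *Rgs5*, *Pdgfrb*, *Cspg4*, *Kcnj8* and *Abcc9* were not highest in it. Control 3 also stood apart in genes outside that list. The satellite cell marker *Sdc4* was at 2714 CPM in it, against 891 to 1401 CPM elsewhere. The Z-disc gene *Flnc* was at 1793 CPM, against 547 to 776 CPM elsewhere. Control 1 had the highest sum of 5 erythroid markers, at 373 CPM against 33.6 to 169 CPM elsewhere.

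The 44 genes took 0.115%, 0.129% and 0.123% of all counts in the 3 control libraries and 0.135%, 0.134% and 0.138% in the 3 *Gli3*∆/∆ libraries. Of these shares of the library totals, those of *Gli3*∆/∆ lay above every control, with means of 0.122% ± 0.00711 and 0.136% ± 0.00184 (SD, n = 3 each). The exact 95% binomial intervals were narrow, from 0.114% to 0.116% in control 1, the lowest, and from 0.137% to 0.139% in *Gli3*∆/∆ 3, the highest. They cover counting error only. On the TMM scale, used for all levels below, the groups overlapped. The 44 genes summed to 1126, 1246 and 1346 CPM in controls and 1340, 1318 and 1367 CPM in *Gli3*∆/∆ libraries. Control 3 lay above 2 of the 3 *Gli3*∆/∆ libraries. The set did not rise as a whole. Genes shared between fiber types had mean sums of 1087 CPM in controls and 1071 CPM in *Gli3*∆/∆, and fast isoforms 124 and 234 CPM. Most of the fast difference was *Actn3*, with means of 34.4 and 110.7 CPM, and *Atp2a1*, with 47.0 and 73.3 CPM.

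Levels spread widely among the genes. In the mean of the 6 libraries, 2 genes exceeded 100 CPM, 10 lay between 10 and 100 CPM, 24 between 1 and 10 CPM, and 8 below 1 CPM. By class the median was 7.39 CPM for the 17 genes shared between fiber types, 3.31 CPM for the 14 fast, 1.83 CPM for the 5 developmental and 0.507 CPM for the 8 slow isoforms.

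**Figure D1:**
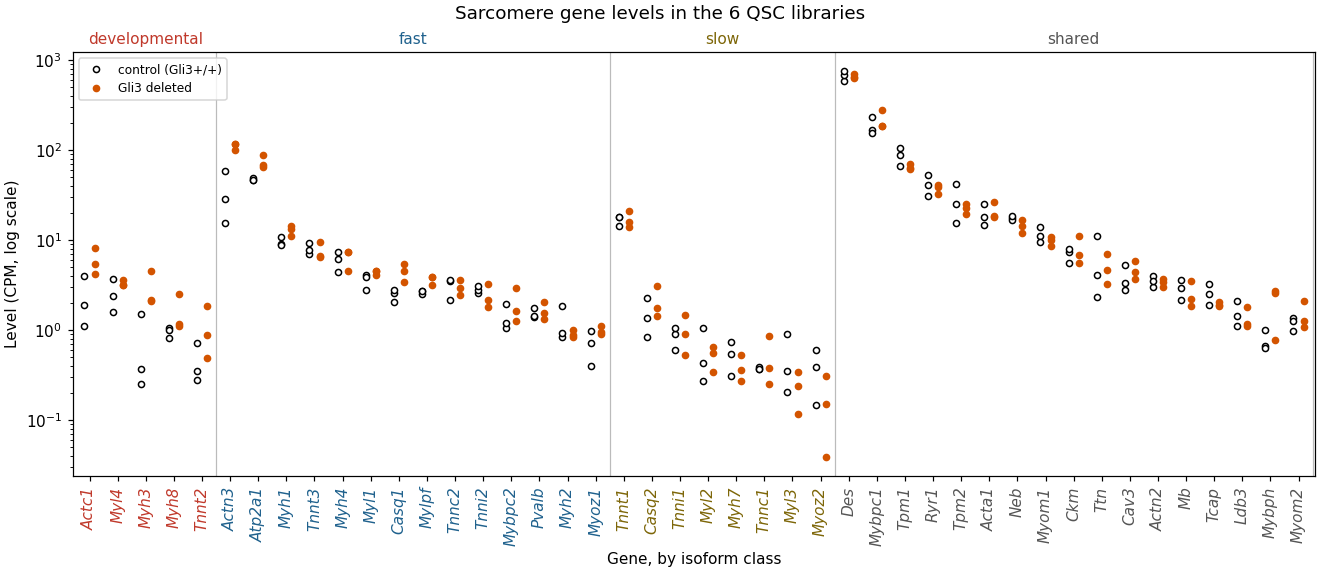
Level of each of the 44 genes in each QSC library, in TMM-scaled CPM on a log axis, with open points for the 3 control libraries and filled points for the 3 *Gli3*∆/∆ libraries. *Des* lies between 586 and 745 CPM and *Mybpc1* between 154 and 277 CPM, while 8 genes, 6 of them slow isoforms, have means below 1 CPM.

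Per length (mean CPM per kb of exon), *Des* stood first at 176.5 CPM per kb, followed by *Mybpc1* at 44.1, *Actn3* at 25.01, *Atp2a1* at 17.3 and *Acta1* at 13.1. The place of *Actn3* came from the *Gli3*∆/∆ libraries, at 34.2, 40.4 and 39.8 CPM per kb. In controls it was at 5.32, 9.90 and 20.4 CPM per kb, and its mean of 11.9 was sixth, below *Atp2a1*, *Tpm1* and *Acta1*. *Des* encodes desmin, the intermediate filament that ties Z-discs to each other and to the membrane, and it alone supplied 47.3% to 55.3% of the counts of the 44 genes. *Mybpc1* encodes slow myosin-binding protein C, *Actn3* the α-actinin of fast Z-discs, *Atp2a1* the fast-fiber calcium pump SERCA1 and *Acta1* skeletal α-actin. Next came *Tpm1* at 11.7, *Tpm2* at 8.59, *Tnnt1* at 7.63, *Tnnt3* at 4.89 and *Tnnc2* at 3.83 CPM per kb. The same 10 genes were the 10 highest when the longest transcript replaced the union of exons. Lowest per length were *Myoz2* at 0.0794, *Myh7* at 0.0535 and *Ttn*, the giant spring protein titin, at 0.0460 CPM per kb. These are bulk samples, in which fewer cells of a type and less RNA per cell cannot be told apart.

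The promoters of 37 of the 44 genes were in the RefSeq table used here (GRCm38.p6, 250 bases before to 50 after the start). Shown are 5 of them, the 3 with the highest level per length and 2 of developmental isoforms, *Myh3* and *Actc1*, those of that class with an unadjusted p under 0.05 between genotypes. E-boxes (CANNTG, read on both strands), which myogenic bHLH factors such as MYOD and MYF5 bind, are in capitals. The windows are chr1:75360042-75360341 on the plus strand for *Des*, chr10:88605103-88605402 on the minus strand for *Mybpc1*, chr7:126463024-126463323 on the minus strand for *Atp2a1*, chr2:114052826-114053125 on the minus strand for *Actc1* and chr11:67078050-67078349 on the plus strand for *Myh3*.
Des: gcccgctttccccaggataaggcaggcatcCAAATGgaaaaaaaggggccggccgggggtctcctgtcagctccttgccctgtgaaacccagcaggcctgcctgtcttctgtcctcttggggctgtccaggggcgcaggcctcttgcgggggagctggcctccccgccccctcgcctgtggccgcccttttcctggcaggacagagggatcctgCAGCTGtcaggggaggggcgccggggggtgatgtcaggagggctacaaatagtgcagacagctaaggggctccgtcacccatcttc
Mybpc1: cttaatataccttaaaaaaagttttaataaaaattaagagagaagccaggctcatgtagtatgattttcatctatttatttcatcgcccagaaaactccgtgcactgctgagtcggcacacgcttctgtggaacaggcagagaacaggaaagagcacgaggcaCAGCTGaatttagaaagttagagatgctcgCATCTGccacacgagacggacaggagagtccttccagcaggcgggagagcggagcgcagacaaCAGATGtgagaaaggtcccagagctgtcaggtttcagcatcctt
Atp2a1: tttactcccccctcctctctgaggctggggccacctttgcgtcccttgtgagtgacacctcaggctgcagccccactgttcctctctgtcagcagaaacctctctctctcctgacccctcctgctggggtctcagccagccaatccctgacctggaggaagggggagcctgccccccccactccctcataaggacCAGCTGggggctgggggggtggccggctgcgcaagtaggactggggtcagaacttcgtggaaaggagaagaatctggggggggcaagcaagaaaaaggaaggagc
Actc1: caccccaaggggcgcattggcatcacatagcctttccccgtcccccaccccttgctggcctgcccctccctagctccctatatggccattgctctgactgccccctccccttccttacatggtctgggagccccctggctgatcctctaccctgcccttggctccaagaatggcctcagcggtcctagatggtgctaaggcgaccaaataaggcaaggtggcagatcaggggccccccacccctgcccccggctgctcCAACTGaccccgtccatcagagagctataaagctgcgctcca
Myh3: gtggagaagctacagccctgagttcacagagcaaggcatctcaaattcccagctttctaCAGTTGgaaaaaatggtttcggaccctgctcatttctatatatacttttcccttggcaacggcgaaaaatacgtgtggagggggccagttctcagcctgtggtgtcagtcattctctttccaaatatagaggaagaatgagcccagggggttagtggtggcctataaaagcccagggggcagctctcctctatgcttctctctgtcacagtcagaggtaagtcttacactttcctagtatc

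*Mybpc1* held 3 E-boxes, *Des* 2, and *Atp2a1*, *Actc1* and *Myh3* 1 each. The E-box CAGCTG, a form contained in CANNTG, was present in *Des*, *Mybpc1* and *Atp2a1* and absent from the *Actc1* and *Myh3* windows. Of the 37 genes, 86.5% held a CANNTG and 45.9% (17 of 37) a CAGCTG, against 72.3% and 16.3% of all 32851 promoters of the same length. A gene counted once if any of its promoters held the motif, while all promoters were counted singly. The shares of genes and of promoters thus differ in unit, here and for the motifs below. The MEF2 motif, bound by the factors that act with MYOD on muscle genes, was in 7 of 37 (18.9%, against 3.19% of all). TATAAA was in 11 of 37 (29.7%, against 13.6%), among them *Actc1*, *Myh3* and the 4 other heavy chain genes of the chromosome 11 cluster. The GLI motif GACCACCCA, searched on both strands, was in none of the 37 and in 0.253% of all promoters. A match is a string of letters, not a measured site.

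The comparison of genotypes asks whether loss of *Gli3* in QSCs altered this program. No gene of the 44 passed edgeR's quasi-likelihood test at an adjusted p of 0.05 and a 1.2-fold change, where 88 of all 25093 genes, 0.351%, did. In all, 8 had an unadjusted p under 0.05, 7 higher and 1 lower in *Gli3*∆/∆, where 7.11% of all genes did in either direction (7 of 44 against 3.2% of all genes, and 1 of 44 against 3.91%). DESeq2 called 2 of them, *Actn3* and *Atp2a1* (1.64% of all genes with an adjusted p were called), and limma-voom called *Actn3* (0.291% of all genes were called). The libraries of the genotypes did not overlap for 9 genes that were higher and 1 that was lower in *Gli3*∆/∆, against 6.39% and 6.57% of all genes. The median log2 fold change of *Gli3*∆/∆ over control was 0.11 over the 44 genes and -0.031 over all genes, and 25 of 44 lay above 0, against 45% of all.

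**Figure D2:**
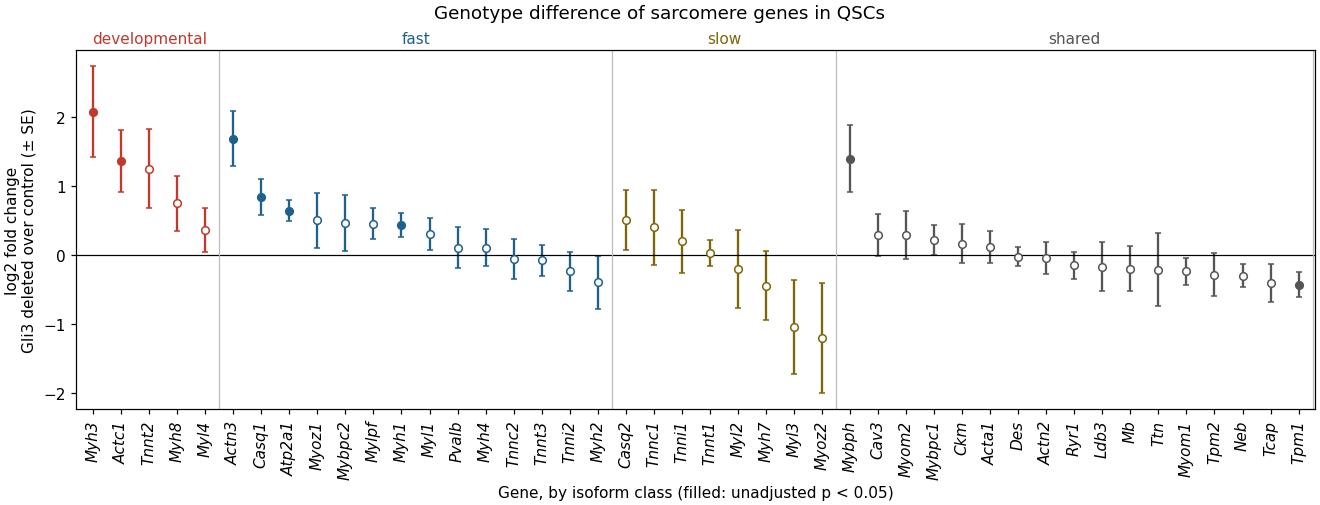
Log2 fold change of *Gli3*∆/∆ over control for each of the 44 genes, with its standard error, grouped by isoform class and filled where the unadjusted p is under 0.05. All 5 developmental isoforms lie above 0, with *Myh3* highest at 2.08, and *Actn3* at 1.69 leads the fast isoforms, while 11 of the 17 genes shared between fiber types lie below 0, 5 of them in every fit.

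*Actn3* had the smallest adjusted p after *Atp2a1*. The gene lies at chr19:4861216-4877909 on the minus strand (GRCm38). Its levels were 15.4, 28.7 and 59.1 CPM in controls and 99.3, 117 and 115.5 CPM in *Gli3*∆/∆ libraries. All 3 *Gli3*∆/∆ libraries lay above the highest control, and the controls themselves spread from 15.4 to 59.1 CPM. The log2 fold change was 1.69 ± 0.40 (SE), with an adjusted p of 0.222 in edgeR's quasi-likelihood fit after the Benjamini-Hochberg correction, 0.00103 by DESeq2 and 0.0390 by limma-voom. Without control 3, its highest control, edgeR called it too, at a log2 fold change of 2.32 and an adjusted p of 0.00794. Over all 13 fits its log2 fold change stayed between 1.34 and 2.32 while the adjusted p ran from 0.00103 to 0.610. *Actn2*, the other sarcomeric α-actinin, lay at 3.01 to 4.02 CPM in controls and 3.03 to 3.74 CPM in *Gli3*∆/∆ libraries.

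*Atp2a1* pumps calcium back into the sarcoplasmic reticulum of fast fibers. It was at 46.2, 48.6 and 46.2 CPM in controls and 64.5, 87.1 and 68.2 CPM in *Gli3*∆/∆ libraries. The controls were nearly equal and every *Gli3*∆/∆ library was above them, a log2 difference of 0.64 ± 0.15 with an adjusted p of 0.198 by edgeR's quasi-likelihood test and 0.0142 by DESeq2. *Casq1*, which encodes the fast calsequestrin that stores calcium in the same compartment, was also separated by genotype, at 2.61, 2.06 and 2.79 CPM against 5.42, 3.40 and 4.54 CPM. Its log2 fold change was 0.84 ± 0.26 (adjusted p = 0.428, edgeR's quasi-likelihood test). *Atp2a1* overlaps *Rabep2* on the opposite strand, which had a mean of 1403 counts, against 1861 to 5837 counts of *Atp2a1* itself. The library kit keeps the strand of the RNA. The rest of the calcium and membrane genes overlapped between genotypes. *Ryr1*, the calcium release channel, was at 31.1 to 53.4 CPM in controls and 32.8 to 40.8 CPM in *Gli3*∆/∆ libraries, and *Casq2*, *Cav3* (caveolin of the muscle membrane) and *Pvalb* (the calcium buffer parvalbumin) lay between 0.830 and 5.86 CPM over both genotypes.

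The myosin heavy chain genes *Myh3*, *Myh2*, *Myh1*, *Myh4* and *Myh8* lie in this order on the plus strand of chromosome 11, from the start of *Myh3* at 67078300 to the end of *Myh8* at 67308634 (GRCm38), and encode the embryonic, IIa, IIx, IIb and neonatal motors. Their sequences are alike, and 15.8% of the 75-base windows of *Myh1*, 13.9% of *Myh2*, 9.68% of *Myh4*, 7.04% of *Myh8* and 1.84% of *Myh3* also occur in another gene, so that salmon had to divide such reads. Per length, *Myh1* made up 47.7% to 57.4% of the 6 heavy chains in every library and *Myh4* 24.2% to 41.9%. The adult IIx and IIb forms thus made up most transcripts of these 6 heavy chain genes in QSCs of both genotypes.

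*Myh1* was at 10.8, 9.01 and 8.75 CPM in controls and 11.1, 13.1 and 14.2 CPM in *Gli3*∆/∆ libraries. The groups did not overlap, with a log2 difference of 0.43 ± 0.18 and an adjusted p of 0.663 by edgeR's quasi-likelihood test. *Myh4* was at 4.42, 7.35 and 6.13 CPM against 4.56, 7.36 and 7.34 CPM. These ranges all but coincide. *Myh2* was at 0.844, 0.919 and 1.83 CPM against 0.840, 1.00 and 0.885 CPM, and its highest value was that of control 3. The slow and cardiac chain *Myh7*, of which 10.6% of windows occur elsewhere, was at 0.546, 0.311 and 0.743 CPM against 0.534, 0.358 and 0.275 CPM, again overlapping.

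*Myh3* showed the largest fold difference of the 44. It was at 1.52, 0.252 and 0.371 CPM in controls and 2.16, 2.12 and 4.58 CPM in *Gli3*∆/∆ libraries. Control 1 was well above the other controls, yet below every *Gli3*∆/∆ library. The log2 fold change was 2.08 ± 0.66 with an adjusted p of 0.446 by edgeR's quasi-likelihood test, and without control 1 it was 3.25 with an adjusted p of 0.0452. That fit is the only one of 13 in which *Myh3* was called, and the adjusted p reached 0.970 in another. As a share of the heavy chains per length, *Myh3* took 8.47%, 1.43% and 2.13% in controls and 11.3%, 8.67% and 17.0% in *Gli3*∆/∆ libraries.

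The other developmental isoforms lay on the same side. *Actc1*, the cardiac α-actin that newly formed muscle uses before *Acta1*, was at 1.89, 1.11 and 3.97 CPM in controls and 8.07, 5.46 and 4.23 CPM in *Gli3*∆/∆ libraries, with a log2 difference of 1.36 ± 0.45 and an adjusted p of 0.494 by edgeR's quasi-likelihood test. The groups did not overlap, although control 3 came close to *Gli3*∆/∆ 3. *Myh8* was at 1.07, 0.815 and 0.998 CPM against 1.18, 2.52 and 1.10 CPM, again without overlap but with only 1 *Gli3*∆/∆ library clearly apart. *Tnnt2*, the cardiac troponin T of developing muscle, was at 0.720, 0.356 and 0.279 CPM against 0.878, 0.492 and 1.85 CPM. *Myl4*, the embryonic light chain, was at 2.38, 1.601 and 3.71 CPM against 3.13, 3.13 and 3.58 CPM. Both of these overlapped between genotypes, and their adjusted p was 0.721 for *Tnnt2* and 0.905 for *Myl4* by edgeR's quasi-likelihood test.

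Summed over these 5 isoforms, the level was 7.57, 4.14 and 9.33 CPM in controls and 15.4, 13.7 and 15.3 CPM in *Gli3*∆/∆ libraries. The means were 7.01 ± 2.64 and 14.8 ± 0.955 CPM (SD, n = 3 each), and the groups did not overlap. A list of 14 genes for myogenesis and fusion held mostly regulators, but also *Jph2* of the calcium handling list and the myosin light chain *Myl6*. Of these 14 genes, 7 had a higher and 7 a lower mean in *Gli3*∆/∆. Of the 14, 3 were separated by genotype, all higher: *Myog*, *Mymx* and the cell cycle inhibitor *Cdkn1c*. Over all genes, 6.39% were separated and higher, and 6.57% separated and lower. *Myog*, the factor that starts terminal differentiation, was at 4.94, 2.61 and 6.31 CPM in controls and 14.2, 9.67 and 9.05 CPM in *Gli3*∆/∆ libraries (adjusted p = 0.297 by edgeR's quasi-likelihood test), and *Mymx*, which encodes a protein of myoblast fusion, was at 0.0745, 0.0296 and 0.0232 CPM in controls and 0.229, 0.149 and 0.492 CPM in *Gli3*∆/∆ libraries (adjusted p = 0.436 by the same edgeR test). The part of these genes in the isoform values was not tested.

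**Figure D3:**
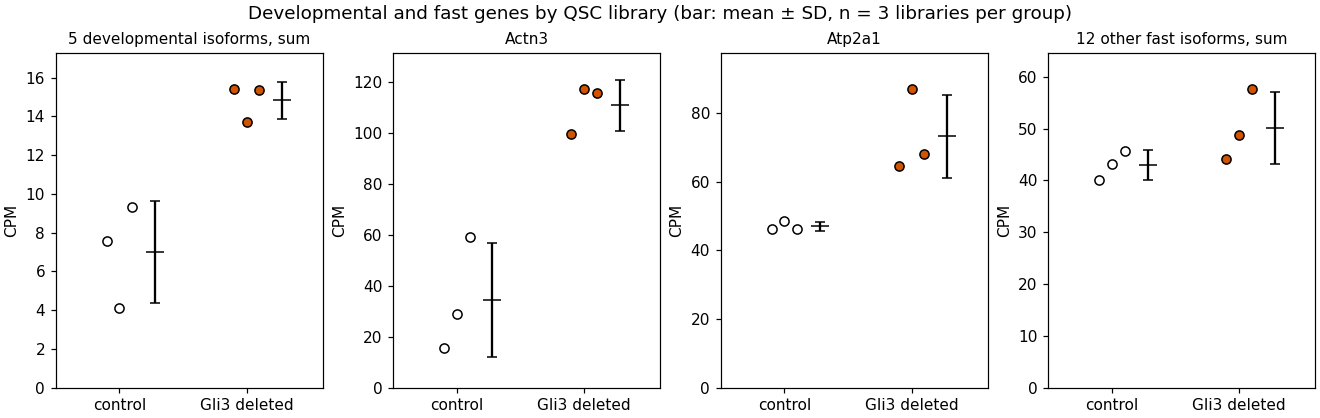
Summed level of the 5 developmental isoforms, levels of *Actn3* and *Atp2a1*, and summed level of the 12 other fast isoforms, in TMM-scaled CPM for each QSC library, with the mean ± SD of the 3 libraries per genotype. The first 3 panels show no overlap between genotypes (developmental sum 4.14 to 9.33 against 13.7 to 15.4 CPM), while the 12 other fast isoforms overlap, at 40.0 to 45.7 against 44.1 to 57.7 CPM.

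Among fast isoforms the separation lay mostly in *Actn3* and *Atp2a1*. All 14 summed to 102, 120 and 151 CPM in controls and 208, 253 and 241 CPM in *Gli3*∆/∆ libraries, but the 12 others reached 40.0, 43.1 and 45.7 CPM against 44.1, 48.7 and 57.7 CPM, which overlapped. *Mylpf* and *Myl1* did not overlap. *Mylpf*, the phosphorylatable fast light chain, was at 2.71, 2.53 and 2.74 CPM against 3.15, 3.88 and 3.89 CPM, and *Myl1*, the fast alkali light chain, at 4.07, 2.82 and 3.88 CPM against 4.56, 4.10 and 4.56 CPM. In edgeR's quasi-likelihood test neither reached an unadjusted p of 0.05, although *Mylpf* did in limma-voom, and 8.08% of the 75-base windows of *Myl1* occur in another gene. The fast troponins *Tnnt3*, *Tnni2* and *Tnnc2*, which sense calcium on the thin filament, lay at 6.53 to 9.42, 1.81 to 3.23 and 2.19 to 3.64 CPM over the 6 libraries, overlapping between genotypes.

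The 8 slow isoforms, without *Mybpc1*, which was classed as shared, had the lowest median of the classes. The 5 developmental isoforms summed to less in every library. The 8 summed to 22.7, 21.02 and 20.5 CPM in controls and 20.8, 19.02 and 25.6 CPM in *Gli3*∆/∆ libraries, of which slow troponin T, *Tnnt1*, gave 14.1 to 20.9 CPM. None of the 8 had an unadjusted p under 0.05 by edgeR's quasi-likelihood test, and none was free of overlap. *Myl2*, *Myl3*, *Myh7*, *Tnnc1*, *Tnni1* and *Myoz2* had means of 0.272 to 0.910 CPM. *Tnnc1* lies across from *Nisch*, a gene of 27118 mean counts on the opposite strand, against its own level of 0.438 CPM. Errors were wide, and the log2 fold change of *Myl3* was -1.04 ± 0.68.

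The genes shared between fiber types lay on both sides of 0. *Des* was at 586, 675 and 745 CPM in controls and 634, 642 and 694 CPM in *Gli3*∆/∆ libraries, the steadiest of the 44 with a coefficient of variation of 8.27%. *Mybpc1* was at 166, 233 and 154 CPM against 277, 183 and 184 CPM, and the high value of *Gli3*∆/∆ 1 set its mean apart. *Acta1* was at 14.6, 18.04 and 25.1 CPM against 18.4, 17.8 and 26.3 CPM. *Des*, *Mybpc1* and *Acta1* each overlapped between genotypes. *Ttn* was at 10.95, 2.33 and 4.06 CPM against 7.08, 4.596 and 3.23 CPM. Its highest value was that of control 1, the library with the highest sum of macrophage and leukocyte markers as well, at 26.4 CPM, whose part in it was not tested. *Mybph*, which encodes myosin-binding protein H, was at 0.670, 1.01 and 0.627 CPM against 0.782, 2.60 and 2.71 CPM, with overlap through *Gli3*∆/∆ 1 and an adjusted p of 0.535 by edgeR's quasi-likelihood test. The other genes named in this paragraph overlapped too. *Myom1* and *Myom2*, which cross-link myosin at the M-band, ranged from 8.54 to 14.02 and from 0.968 to 2.09 CPM over the 6 libraries, and *Mybpc2*, fast myosin-binding protein C, from 1.043 to 2.93 CPM. The Z-disc genes *Tcap*, *Ldb3* and *Myoz1* ranged from 1.865 to 3.23, from 1.11 to 2.11 and from 0.397 to 1.11 CPM, and *Ckm* and *Mb* from 5.55 to 11.1 and from 1.865 to 3.60 CPM.

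*Tpm1*, which encodes α-tropomyosin and is also made outside striated muscle, was the one gene with an unadjusted p under 0.05 and a lower level in *Gli3*∆/∆. It was at 88.3, 67.2 and 105.5 CPM in controls and 61.5, 69.7 and 62.7 CPM in *Gli3*∆/∆ libraries, a log2 difference of -0.43 ± 0.17 with an adjusted p of 0.664 by edgeR's quasi-likelihood test. The groups overlapped. β-tropomyosin, *Tpm2*, was at 24.98, 15.5 and 41.9 CPM against 19.3, 22.8 and 25.5 CPM. Both tropomyosins were highest in control 3, the library with 1141 CPM of smooth muscle and mural markers. Most of that sum was *Tagln* at 600 CPM and *Acta2* at 347 CPM. *Rgs5*, *Smtn* and *Pdgfrb* were higher in control 1, and *Kcnj8* and *Abcc9* were lower in control 3 than in the other controls. Of the 10 markers of that list 8 were lower in *Gli3*∆/∆, 4 of them with an unadjusted p under 0.05 in edgeR's quasi-likelihood test. Over all genes, 3.91% were lower at that p, and 45% had a log2 fold change above 0. *Cspg4* was higher without overlap (unadjusted p = 0.0385, edgeR's quasi-likelihood test). The 10 markers summed to 370 to 1141 CPM in controls and 385 to 439 CPM in *Gli3*∆/∆ libraries. The defining markers were not at 0, since *Myh11* was at 27.4, 5.72 and 27.6 CPM in controls and 6.28, 10.4 and 4.68 CPM in *Gli3*∆/∆ libraries, and their part in the tropomyosin values was not tested. *Neb*, the ruler protein nebulin of the thin filament, was at 17.7, 16.7 and 18.3 CPM against 14.3, 16.6 and 11.9 CPM, lower in every *Gli3*∆/∆ library though by little in one of them, and its unadjusted p was 0.105 by edgeR's quasi-likelihood test.

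Further genes of the same machinery were read from separate lists. Of 30 other sarcomere and Z-disc genes measured, 0 were called by edgeR's quasi-likelihood test, with 2 higher and 4 lower at an unadjusted p under 0.05. Of all genes, 3.2% were higher and 3.91% lower at that p, here and for each list below. For the sarcomere and Z-disc list, libraries did not overlap for 2 genes that were higher and 5 that were lower in *Gli3*∆/∆. These compare with 6.39% and 6.57% of all genes, and the median log2 fold change of the list was -0.11. Those lower were *Pdlim3*, *Synm*, *Cmya5*, *Myot* and *Trim63*. *Tmod4*, the skeletal tropomodulin that caps thin filaments, was at 0.497, 0.726 and 0.325 CPM in controls and 2.23, 2.72 and 6.33 CPM in *Gli3*∆/∆ libraries, with an adjusted p of 0.0656 by edgeR's quasi-likelihood test. All its *Gli3*∆/∆ values lay above the controls, and DESeq2 called it. *Pdlim3*, a Z-disc adaptor, was on the other side, at 26.4, 20.1 and 25.4 CPM against 14.9, 12.6 and 14.9 CPM, and DESeq2 called it as well. Of 22 other genes of calcium handling and 14 of myofiber energy supply 0 were called by edgeR, with 1 of each list lower and none higher at an unadjusted p under 0.05. *Sln*, sarcolipin, which inhibits the SERCA pumps, was the one in the calcium list, at 1.018, 1.42 and 1.74 CPM against 0.420, 0.388 and 0.472 CPM. It was called by DESeq2 and not by edgeR (adjusted p = 0.141 in its quasi-likelihood test). Of 9 chaperones of sarcomere assembly and the 14 genes listed for myogenesis and fusion, 0 were called by edgeR. At an unadjusted p under 0.05, 1 chaperone was higher and 1 lower, and 3 of the 14 genes were higher and 0 lower. DESeq2 called *Myog* among them. Over all 15 lists it called 7 genes, with *Abcc9* of the mural list and *Sox10* of the Schwann cell list among them. It called 1.64% of all genes with an adjusted p.

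The mean over all 12 libraries, which the authors deposited with their comparisons, adds what the ASC libraries bring. It was rescaled to the same total over genes as CPM and set beside the mean CPM of the 6 QSC libraries, here without TMM. The 2 values come from tables normalized separately, the 12-library mean includes the QSC libraries and pools both genotypes, and it has no replicate, so no test was made. As the QSC libraries are part of the 12, the ratio understates the difference between ASCs and QSCs in either direction. A lower level in ASCs can reduce the ratio only so far, while a higher level can raise it without such a limit. Ratios below and above 1 are thus not on a like scale. A gene whose reads come mostly from QSCs takes a low ratio, such as 0.497 for *Calcr* and 0.545 for *Pax7*, both markers of quiescent satellite cells. The median ratio was 0.989 over all genes with a QSC count.

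Of the 44 genes, 19 had a ratio of at least 2, against 16.8% of all genes, and 12 had a ratio of at least 4, against 8.19%. The median over the 44 was 1.58. *Ttn* led with 459 CPM in the 12-library mean against 5.39 CPM in QSCs, a ratio of 85.2. *Tnnt2* followed at 18.9 against 0.766 and *Myh3* at 44.01 against 1.85 CPM, ratios of 24.7 and 23.8. *Ttn*, at the bottom of the order per length in QSCs, was thus second only to *Des* in the 12-library mean, by counts not divided by length. Then came *Myom2*, an M-band protein, at 9.11, *Mylpf* at 8.69, *Mybph* at 7.02, the slow troponins *Tnnc1* at 6.72 and *Tnni1* at 5.84, *Tpm1* at 5.33 and *Actc1* at 4.597. *Myog* stood at 10.9, and *Chrng*, the fetal subunit of the acetylcholine receptor, at 86.0.

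**Figure D4:**
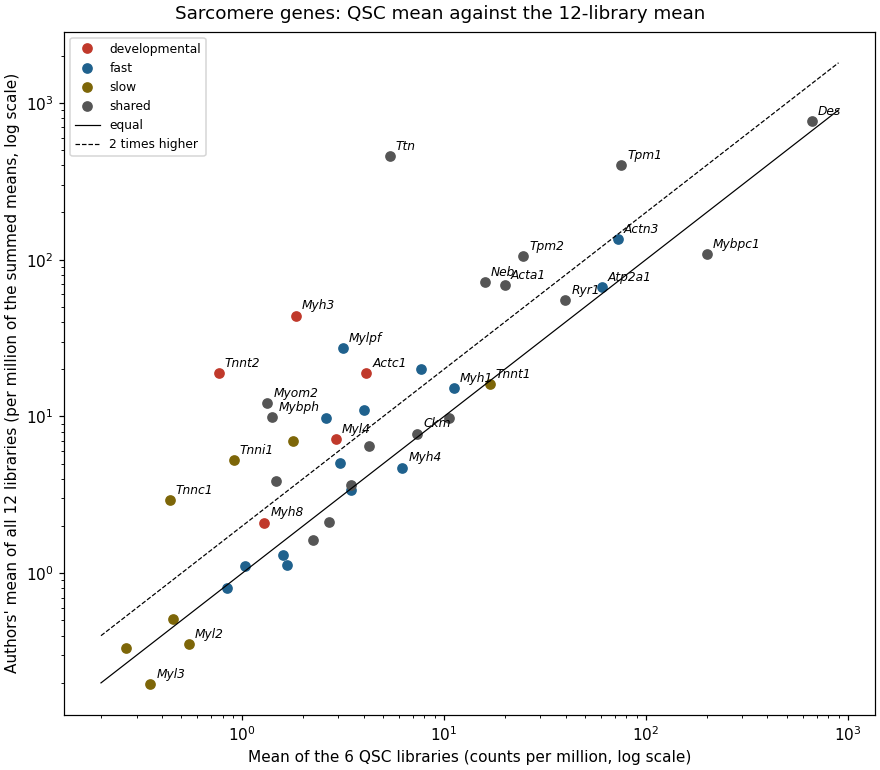
Mean of the 6 QSC libraries (horizontal) against the authors' mean of all 12 libraries (vertical) for the 44 genes, both as CPM on log axes, coloured by isoform class, with lines at equality and at 2 times higher. *Ttn* lies farthest above the line at 459 against 5.39 CPM, *Myh3* and *Tnnt2* lie more than 20 times above equality, and *Mybpc1*, *Myl3* and *Myl2* lie below it.

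By class the median ratio was 4.597 for the 5 developmental isoforms, 1.23 for the 14 fast, 1.19 for the 8 slow and 1.53 for the 17 shared genes. All 5 genes of actin, tropomyosin and nebulin lay at 3.43 to 5.33. The adult heavy chains stayed low, with *Myh1* at 1.36, *Myh7* at 1.121, *Myh2* at 1.08 and *Myh4* at 0.762, while neonatal *Myh8* was at 1.63. Muscle creatine kinase *Ckm* was at 1.05, myoglobin *Mb* at 0.784, parvalbumin *Pvalb* at 0.819 and titin-cap *Tcap* at 0.725, while other genes of adult fast fibers were higher, such as *Tnni2* at 3.73, *Myl1* at 2.75 and *Tnnt3* at 2.62. *Mybpc1* had the lowest ratio of the 44, at 0.540, close to the 0.545 of *Pax7*, with *Myl3* at 0.562 and *Myl2* at 0.650 next. *Actn3* had a ratio of 1.87 and *Atp2a1* of 1.105. The 7 macrophage and leukocyte markers had ratios of 5.37 to 150, with a median of 58.5, so the 12-library mean also held more RNA of such cells, and its part in the values of the 44 genes was not tested.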

How the data were processed

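RNA of sorted satellite cells (20 ng) was made into strand-keeping polyA libraries. Estimated counts of each gene were deposited by the authors (salmon and tximport, GRCm38 with GENCODE vM19, genes with at least 5 reads in at least 2 samples), without normalization. Of 12 library columns, the 6 QSC columns carry sample titles. The other 6, of ASCs, match no label and were not used in any step, so the planned ASC comparisons were not run, and the fit holds the QSC libraries alone. The deposited tables of the authors' comparisons hold log2 fold changes and p-values, which were not used. Only their mean column was used, a signal that is identical in the 4 tables (size-factor-scaled counts averaged by the authors over 12 libraries).

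The 44 genes, isoform classes and 15 gene lists were chosen with earlier results of these data known. Counts were rounded (49.2% of values were not whole) and tested with edgeR 4.0.16 in R 4.3.3 by TMM normalization, the quasi-likelihood test and Benjamini-Hochberg adjustment over 25093 genes, with no more filtering. Calls needed a 1.2-fold difference or more and an adjusted p below 0.05. The alternatives were limma-voom with quality weights (limma 3.58.1), DESeq2 1.42.0, its size factors within edgeR, 2 count filters, the replicate block, no minimum fold and leaving out each library. Totals of 39556784 to 65750131 counts limit the precision of genes under 1 CPM. Exact (Clopper-Pearson) intervals were used for shares. On simulated counts of this comparison, with 200 of 25093 genes changed, edgeR found 57% of the 2-fold and 98% of the 4-fold changes, and 16 genes left unchanged were called. The changed genes were drawn from genes with a mean above 5 CPM, while the 44 had a median of 3.11 CPM. These rates do not cover genes at lower levels. Lengths and 75-base shared windows came from GENCODE vM21 (96.3% of identifiers with the same version). Values in every library are given for genes without overlap, called by any tool or among the 5 highest per length, and for developmental isoforms and heavy chains. The others are given by range. Some list results are not reported here.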

Additional observations from a re-analysis of the deposited data

How the results depend on the processing

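With 3 libraries per genotype, calls depended on the tool and on single libraries. Genes called went from 88 to 384 with DESeq2 and 48 with at least 10 counts in every library, and ranged from 58 to 103 when a library was left out, the lowest without *Gli3*∆/∆ 3. Of the 44 sarcomere genes, 0 were called by edgeR, 2 by DESeq2, 1 by limma-voom, and 0 to 1 when a library was left out (*Myh3* without control 1, *Actn3* without control 3). Over the other gene lists, 0 were called by edgeR, 7 by DESeq2 and 0 to 1 when a library was left out (1 without control 2). The share of counts was 0.136% in controls and 0.151% in *Gli3*∆/∆ with protein-coding nuclear genes as denominator, and ran from 0.119% to 0.126% and from 0.135% to 0.137% when a library was left out. Of 240 log2 fold changes of the 20 genes described library by library for their level, class or separation, 226 kept direction and call, 5 were newly called and 9 turned sign, among them *Des* by limma-voom, at 0.0400. The rest came from leaving out a library, which gave log2 fold changes of -0.590 to 0.0422 for *Myh2* (above 0 without control 3), -0.0710 to 0.298 for *Myh4* (below 0 without control 1, *Gli3*∆/∆ 2 or *Gli3*∆/∆ 3), -0.0902 to 0.350 for *Acta1* (below 0 without control 1 or *Gli3*∆/∆ 3), -0.0057 to 0.430 for *Mybpc1* (below 0 without *Gli3*∆/∆ 1) and -0.113 to 0.0583 for *Des* (above 0 without control 3). Over all 44 genes, 19 had log2 fold changes of both signs over the 13 fits, 10 of the 17 shared and 0 of the 5 developmental, and the widest was *Ttn* at -0.59 to 0.64. The cause was not tested. With TMM-scaled library sizes, chosen after seeing the data, the share of counts was 0.124% in controls and 0.134% in *Gli3*∆/∆, and the groups overlapped. The count of genes at least 2 times higher in the 12-library mean was 19, and 19 to 21 against other QSC values, alternatives chosen after seeing the data. Replicate numbers are shared by the titles alone. Deviations of same-numbered libraries correlated at -0.276, -0.0196 and -0.0642, and with the number as a block 79 genes and 0 of the 44 were called. Genes under 1 CPM are limited by depth.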

Other observations

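Genes outside the 44 with a mean of at least 10 CPM were ranked by the correlation of their log2 CPM with *Acta1*. Over the 6 QSC libraries, the closest were *Dnaja3* (Pearson r = 0.991), *Dnttip1* (0.982) and *Trit1* (0.981), and the 10 closest ran down to *Iscu* at 0.965. The 44 genes were left out of this ranking, so it cannot show how closely they followed *Acta1*. The points share libraries and depth, so these values are a description without a test. Outside the 44 genes, *Eno3*, the muscle enolase, was at 14.7 in the ratio of the 12-library to the QSC mean, and *Klhl40*, which stabilizes thin-filament proteins, at 28.6.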
